A study of Mus musculus with 9 samples.

Results

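The late prenatal maturation of the mouse olfactory bulb was followed by setting 3 arrays labelled E14, E15 and E16, called the middle block, against 3 labelled E17, E18 and P0 (the day of birth), called the perinatal block, so that 6 of the 9 arrays of the series were used. The bulbs came from untreated mice of the outbred CD1 strain, with 1 animal and 1 Affymetrix array at each age and total RNA amplified in 2 rounds. No age was repeated, and consecutive ages stood in for replicates of a block. Values are log2 expression levels, on which 1 unit is a 2-fold difference. Xist and the Y-linked genes read as 1 female and 2 males in each block (females at E15 and P0). The median over all probe sets lay between 4.17 and 4.23 on the 6 arrays, and between 20446 and 20646 probe sets read log2 5 or more. Genes whose block means moved before the middle block and little after it are counted near the end.

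The olfactory bulb relays the signals of the nose to the brain. Mitral and tufted cells, its glutamatergic output neurons, are made first from the local ventricular zone, whereas granule and periglomerular cells, its inhibitory interneurons, arrive later and go on arriving after birth. As neurogenesis declines, progenitors leave the cell cycle or turn to making astrocytes and oligodendrocyte precursors, ensheathing glia wrap the incoming axons, and neurons build synapses. The labelled tissue carried its defining markers on every array: Tbr1, Eomes and Reln of the output neurons and Gad1, Sp8 and Dlx1 of the interneurons all read above 9 from E14 to P0. In whole tissue, fewer cells of a type and less RNA per cell cannot be told apart.

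Over the 10713 genes tested, all of which reached log2 5 on 2 or more arrays, a comparison of the block means called 1 gene, 0.00933% of those tested (limma, adjusted p under 0.05). That gene was Shisa3, which encodes a membrane protein of the endoplasmic reticulum. At an unadjusted p under 0.05, 814 genes were higher and 1042 lower in the perinatal block. With 3 arrays against 3, an exact permutation test of a single gene cannot go below 0.1. The drift with age inside a block counted as error in this comparison. A straight line on age over the same 6 arrays, which takes that drift as signal, called 735 rising genes (6.86%) and 473 falling genes (4.42%). The counts of gene lists below are to be set against these shares, and no list was tested as a whole. The line was one of the alternatives written down before the fit, and it was taken as the leading test after the block comparison had called 1 gene. From here on, rose and fell refer to this line, slopes are per day with their standard error, and differences are perinatal minus middle block means with their standard error (n = 3 arrays a block). Another fit, which kept the block and allowed a common slope inside both blocks, called 243 genes higher (2.27%) and 249 lower (2.32%), and 466 of these genes were also called by the line.

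The rising genes moved further than the falling ones. A block difference of at least 1 log2 unit was reached by 329 of 735 genes that rose and by 127 of 473 that fell. All 3 perinatal values lay above all 3 middle values for 505 of the rising genes, and below them for 404 of the falling genes, whereas over all genes tested 958 (8.94%) were higher without overlap and 1667 (15.6%) lower. Scaling changed that last balance, since 1393 genes were higher and 1201 lower without overlap after quantile normalization. The median block difference of all genes was -0.03.

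The timing of the changes differed between the directions. The largest step between consecutive arrays fell between E14 and E15 for 414 of the rising genes (56.3%), and for 126 of the falling genes (26.6%). Falling genes took their largest step between E16 and E17 in 26%, between E17 and E18 in 25.2% and between E18 and P0 in 15.9%. By E16 the median rising gene had covered 62.2% of its change from E14 to P0, and the median falling gene 35.4%. Less than 50% had been covered by E16 in 240 genes that rose and in 368 that fell. With P0 at day 19, E16 lies before the middle of the span. A gene on a straight line would therefore also be under 50%, and this mark does not show a late change. Without the E14 array, 226 genes rose and 190 fell, and without the E18 array 263 rose and 205 fell.

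**Figure D1:**
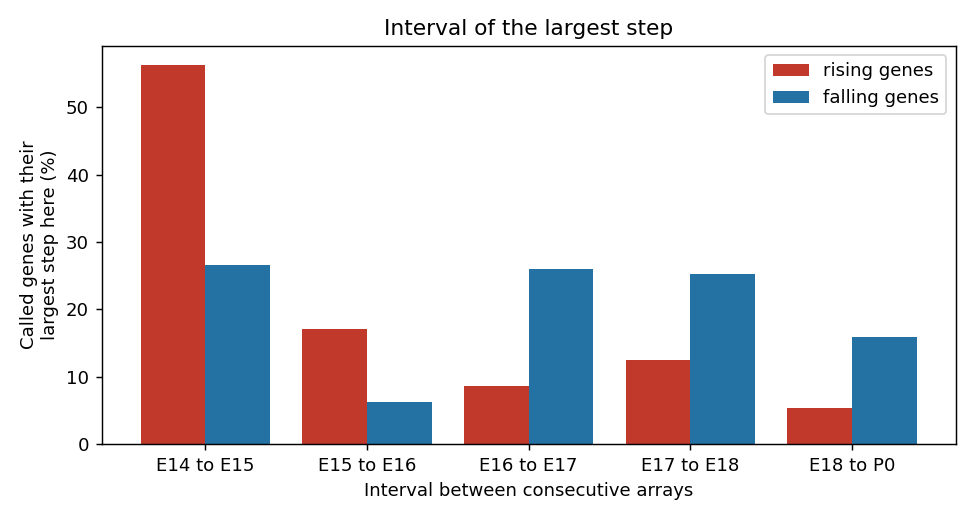
Share of the 735 rising (red) and 473 falling (blue) genes, in percent, whose largest step in the direction of their slope lay in each interval between consecutive arrays from E14 to P0. The first interval holds 56.3% of the rising genes, whereas falling genes are spread over the first and the 3 last intervals.

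Some rising genes switched on, in the sense that they crossed log2 5 between E16 and E17, some of them by little. In 31 rising genes all 3 middle arrays read under log2 5 and all 3 perinatal arrays read 5 or more, and 29 of them had also read under 5 at E11 to E13. The separation of their blocks and its timing follow from this rule, by which they were picked. All 31 passed the filter through the perinatal arrays alone. Shisa3 read 2.54, 2.63 and 3.28 in the middle block and 6.71, 7.54 and 6.98 in the perinatal block, a difference of 4.26 ± 0.32 (adjusted p of the block comparison 0.0204). Crh, corticotropin-releasing hormone, a peptide also made by local neurons of the bulb, read 3.39, 3.15 and 2.91 and then 6.29, 7.94 and 9.04 (slope 1.31 ± 0.20, adjusted p = 0.00668). On the probe sets used, both genes were low through the middle block and high on each later array. Crh was at least 6.75-fold and Shisa3 at least 4.23-fold higher, with values under 5 set to 5. Another probe set of Shisa3 also rose, but later. It read 2.84, 2.81 and 2.89 and then 3.96, 6.02 and 6.32, so that it was still under 5 at E17.

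Aqp4, the water channel of astrocyte endfeet, showed the same late onset, at 3.05, 2.83 and 2.88 from E14 to E16 and 5.67, 6.53 and 7.60 from E17 to P0. Mgp, matrix Gla protein, an inhibitor of calcification found in mesenchyme and vessels, read 3.05, 2.91 and 4.19 and then 6.87, 8.70 and 8.74, at least 8.60-fold higher. Slc6a20a, a transporter of proline and related amino acids, read 2.39, 2.39 and 4.59 and then 7.16, 6.43 and 8.37. Egr3, an immediate early transcription factor, read 3.78, 4.64 and 4.53 and then 6.15, 7.97 and 8.15. The calls of Crh and Aqp4 were lost without the P0 array. That of Kcna1 was lost without E18 or P0 and with values under 5 set to 5, and that of Olig2 without any 1 of E14, E15, E16, E18 and P0 and with that floor. Other genes of the group were Pla2g7, Aldh1a1, Abca8a, Sult1a1, Aspa, the enzyme that splits N-acetylaspartate in oligodendrocytes, Car14, Olig2, Ache (acetylcholinesterase) with its membrane anchor Prima1, the potassium channel Kcna1 and the macrophage receptor Cd163. Prima1 read 3.67, 4.58 and 3.0 and then 5.09, 6.47 and 6.45, and Ache 3.11, 3.82 and 3.73 and then 5.27, 5.07 and 5.46.

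Ptgds, the lipocalin-type prostaglandin D synthase of meninges and glia, had the largest rise. It read 6.67, 7.98 and 9.67 in the middle block and 12.40, 13.03 and 13.74 in the perinatal block, a difference of 4.95 ± 0.71 and a slope of 1.52 ± 0.11 (adjusted p = 0.00168). Its level climbed at every step, and 42.5% of the rise had passed by E16. Fam107a, an actin-associated protein abundant in astrocytes and radial glia, rose from 3.89 at E14 to 9.69 at P0. Fmod (fibromodulin), Sidt1, a putative RNA channel, Pla2g7, Abca8a and Sult1a1 completed the 12 largest rises, with differences between 3.15 and 3.44. In 10 falling genes the reverse switch was seen, from 5 or more on all middle arrays to under 5 on all perinatal arrays. Among them Rad54b, of homologous recombination, read 6.35, 5.97 and 5.86 and then 4.16, 4.42 and 3.90, and Exo1, a DNA repair nuclease, read 7.04, 6.27 and 5.57 and then 4.86, 4.66 and 4.54. Mbnl3, an RNA-binding splicing regulator, fell from 7.09 at E14 to 3.60 at P0, and the kinase Nuak2 from 6.16 to 3.59. The calls of Rad54b and Nuak2 were lost without E14, and that of Nuak2 also with values under 5 set to 5.

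**Figure D2:**
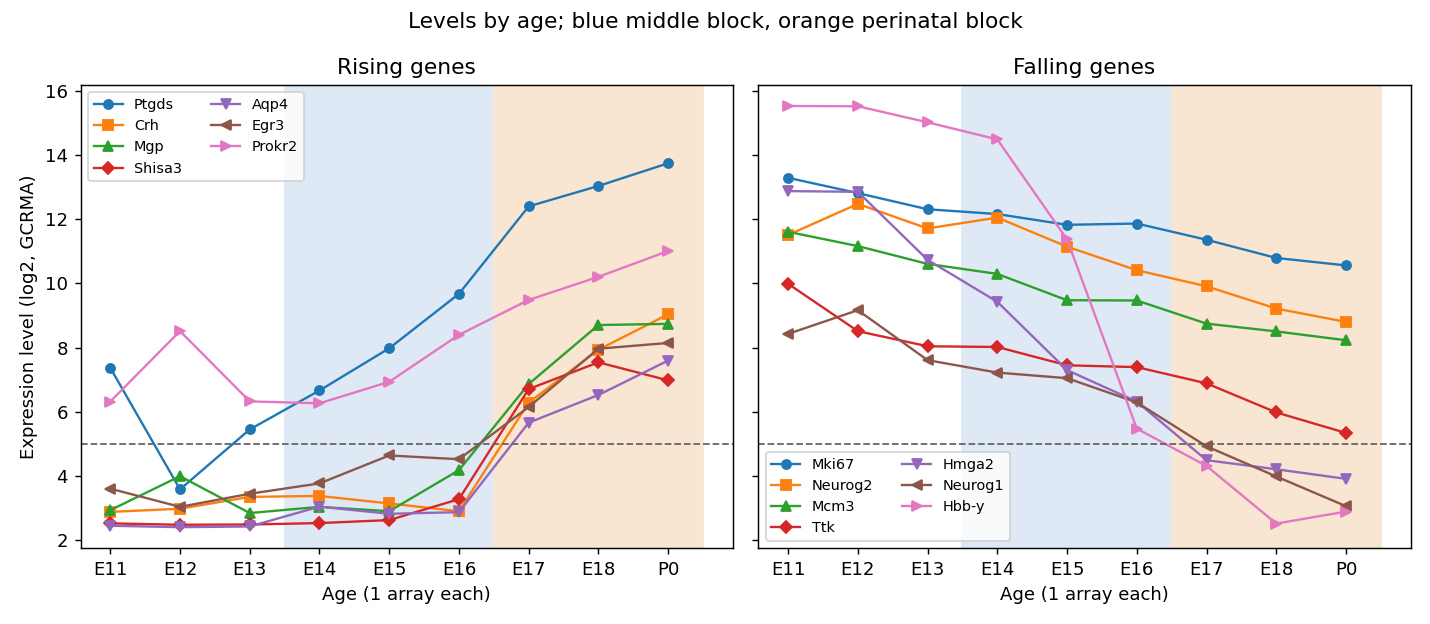
Log2 levels of 7 rising (left) and 7 falling genes (right) at each age from E11 to P0, 1 array an age, with the middle block shaded blue, the perinatal block orange and the log2 5 filter dashed. Crh, Shisa3 and Aqp4 lie under 5 on every array up to E16 and above it on all 3 perinatal arrays, whereas Neurog1, Hmga2 and Hbb-y pass below 5 at E17.

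Genes of cell division fell together. Of 43 tested members of the cell cycle list (46 listed), 38 fell and none rose, with a median difference of -1.06 against -0.03 over all genes, and the 3 perinatal values lay below the middle ones in 37. Mki67, a marker of cycling cells, read 12.16, 11.82 and 11.86 in the middle block and 11.36, 10.79 and 10.56 in the perinatal block (slope -0.33 ± 0.04, adjusted p = 0.00355). Top2a, the topoisomerase of dividing cells, read 11.60, 10.98 and 11.10 and then 10.60, 10.14 and 9.72. Ttk, a kinase of the spindle checkpoint, read 8.02, 7.45 and 7.39 and then 6.89, 5.98 and 5.35, 2.93-fold lower, and Ncapg, a condensin subunit, read 7.97, 7.68 and 7.54 and then 6.37, 6.50 and 5.80. Each of the 38 genes had covered less than 50% of its change from E14 to P0 by E16, with a median of 29.6%. A straight course would also lie under 50% there. The list had been falling before, from a median level of 10.9 at E11 to 9.48 at E14, and reached 7.84 at P0. Between 32 and 39 members fell when any 1 array was left out.

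DNA replication genes followed, with 32 of 41 tested members falling (46 listed), none rising and a median difference of -0.80. Hells, a helicase that remodels chromatin during replication, read 10.02, 9.35 and 9.27 in the middle block and 8.67, 8.05 and 7.60 in the perinatal block. Its call was lost with the median over its probe sets (adjusted p of the slope 0.199). Mcm3, a subunit of the replicative helicase, read 10.29, 9.48 and 9.47 and then 8.75, 8.51 and 8.23, 2.38-fold lower. Lig1, the ligase that joins Okazaki fragments, and Mcm10, which helps to start replication, each differed by -1.18. The perinatal values of 34 members lay below their middle values. Only 19 members fell without the E14 array, and 22 without the P0 array, and the call of Mcm10 was lost without either.

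Promoters of these genes were searched for letters known from cell cycle regulation, over 300-base windows from RefSeq (GRCm38.p6, 250 bases before to 50 after the start site, both strands). TTTGAA, the core of the cell cycle homology region through which late cell cycle genes are repressed in resting cells, was found in 23 of the 31 falling cell cycle genes with a window (74.2%), against 13.9% of the 8705 tested genes with one. CCAAT, bound by NF-Y, was found in 25 of the 31 (80.6%) against 43.3%. TTTGGCGC, an E2F site, was found in 6 of 28 falling DNA replication genes (21.4%) against 1.14%, and TTTCCCGC, another form of it, in 5 (17.9%) against 2.34%. DNA replication genes held TTTGAA in 3 of 28 (10.7%). Of all 381 falling genes with a window, 28.3% held TTTGAA, 54.3% CCAAT, 3.67% TTTGGCGC and 5.25% TTTCCCGC. A match shows that the letters are present and says nothing of binding. The windows of 2 genes of each list with the largest falls and the searched letters are shown to place these letters, with TTTGAA and CCAAT (or their complements TTCAAA and ATTGG) in capitals in the first pair and the E2F forms in the second. Ttk lies at chr9:83834439-83834738 (plus strand), Ncapg at chr5:45669675-45669974 (plus), Hells at chr19:38930740-38931039 (plus) and Mcm3 at chr1:20820263-20820562 (minus).
Ttk: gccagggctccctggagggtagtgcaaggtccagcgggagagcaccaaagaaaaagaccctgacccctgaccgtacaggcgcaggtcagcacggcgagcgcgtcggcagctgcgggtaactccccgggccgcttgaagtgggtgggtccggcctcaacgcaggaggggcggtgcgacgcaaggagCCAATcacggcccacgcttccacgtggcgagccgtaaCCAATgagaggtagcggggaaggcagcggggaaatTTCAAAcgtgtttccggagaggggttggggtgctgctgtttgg
Ncapg: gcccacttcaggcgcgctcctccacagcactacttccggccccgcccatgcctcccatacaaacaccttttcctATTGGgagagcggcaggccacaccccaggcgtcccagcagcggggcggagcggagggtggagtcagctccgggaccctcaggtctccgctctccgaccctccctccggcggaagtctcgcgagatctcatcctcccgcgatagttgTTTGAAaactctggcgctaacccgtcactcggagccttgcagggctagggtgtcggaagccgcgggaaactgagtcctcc
Hells: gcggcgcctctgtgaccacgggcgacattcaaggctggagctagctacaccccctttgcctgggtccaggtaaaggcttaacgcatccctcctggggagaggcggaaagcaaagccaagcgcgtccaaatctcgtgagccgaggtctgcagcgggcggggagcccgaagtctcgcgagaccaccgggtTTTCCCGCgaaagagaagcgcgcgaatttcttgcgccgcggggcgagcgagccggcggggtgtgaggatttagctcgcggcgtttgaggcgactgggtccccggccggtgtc
Mcm3: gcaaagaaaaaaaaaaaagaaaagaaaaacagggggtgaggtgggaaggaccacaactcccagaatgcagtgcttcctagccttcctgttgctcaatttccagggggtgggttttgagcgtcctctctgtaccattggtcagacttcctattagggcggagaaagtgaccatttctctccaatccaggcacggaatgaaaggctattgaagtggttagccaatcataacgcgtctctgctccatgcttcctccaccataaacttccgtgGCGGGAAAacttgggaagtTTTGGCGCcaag
In the Ttk window the CCAAT boxes begin 65 and 28 bases before the start site and TTCAAA at base 8 after it, so that the boxes stand upstream of the homology region. No rising or falling gene with a window held the full palindrome of nuclear factor I, which 2 of the 8705 held. TGACGTCA, the cyclic AMP response element, was found in 2 of 5 rising neuropeptide genes in 0 of 2 rising immediate early genes and in 0 of 7 called synaptic vesicle genes, against 2.48% of all rising genes and 3.77% of all genes tested. CAGCTG, an E-box, was found in 20.2% of rising and 15.2% of falling genes, against 17.6%.

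Progenitor genes fell in part. Of 28 tested members of the radial glia list (32 listed), 12 fell and 2 rose, with a median difference of -0.44. Hmga2, a chromatin protein of young neural stem cells, read 9.43, 7.30 and 6.32 and then 4.50, 4.22 and 3.92, at least 6.42-fold lower. Nes, the intermediate filament nestin, read 9.30, 9.15 and 8.86 and then 8.33, 7.34 and 7.52. Both groups of ages were separate for each gene, and 24.6% of the change of Nes had passed by E16 against 56.4% for Hmga2. Sox2, which stem cells and glia share, was not called (slope 0.02 ± 0.04, adjusted p = 0.786), with values between 11.74 and 12.31. The 2 members that rose, Tnc (tenascin C, 7.91 at E14 and 10.56 at P0) and Slc1a3 (the glutamate transporter GLAST, 10.36 and 11.61), are also expressed by astrocytes and stood on that list too. Without the E14, E18 or P0 array, 5, 6 and 6 members fell.

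Transcription factor genes were called in both directions. Of 583 tested genes matching transcription factor names, 29 rose and 39 fell, against 6.86% and 4.42% of all genes tested. Their median difference was -0.10 against -0.03 over all genes. Hmga2 had the largest fall among the names matched. Neurog1 and Neurog2 encode proneural factors that commit progenitors to glutamatergic neurons. Neurog1 read 7.22, 7.05 and 6.30 in the middle block and 4.93, 3.99 and 3.07 in the perinatal block (slope -0.90 ± 0.08, adjusted p = 0.00236), and Neurog2 read 12.05, 11.14 and 10.41 and then 9.91, 9.22 and 8.80 (slope -0.64 ± 0.04, adjusted p = 0.000887). Each step of both genes was downward. Dmrta1, a regulator of Neurog2 in cortical progenitors, differed by -1.77, Lhx9 by -1.71, Nhlh2 by -1.27, Sox3 by -1.27 and Neurod4 by -1.95. The calls of Neurod4, Nhlh2 and Sox3 were lost without E14 or without E18. That of Neurod4 was also lost without P0 and with values under 5 set to 5. Pax6, a factor of progenitors and dopaminergic interneurons, fell from 10.49 to 9.46, a call lost without E14, E18 or P0. Fgf15, a growth factor of early forebrain progenitors, read 8.48, 7.93 and 7.23 and then 6.85, 6.51 and 5.47. Wif1, an extracellular inhibitor of Wnt proteins, differed by -1.65, and its call too was lost without E14 or E18.

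Among transcription factors that rose, Olig1, which specifies oligodendrocyte precursors, had the second largest difference after Egr3. It read 4.94, 6.55 and 7.75 in the middle block and 8.46, 9.55 and 9.93 in the perinatal block. Foxc2, a factor of mesenchyme and vessels, read 4.66, 5.29 and 5.65 and then 7.25, 7.86 and 7.57. Tbx21, which mitral and tufted cells express as they mature, read 4.91, 7.01 and 7.51 and then 7.75, 9.34 and 9.28. All 3 had separate blocks. Klf9, induced by thyroid and glucocorticoid hormones, rose from 9.44 at E14 to 12.93 at P0, and Klf5 from 4.73 to 7.43. The call of Klf5 was lost without P0, and also without probe sets that match several transcripts, where its slope was 0.19.

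Chromatin and RNA regulators of progenitors shifted less. Of 26 tested members of the chromatin list (33 listed), 6 fell and none rose, with a median difference of -0.37. Ezh2, the methyltransferase of the Polycomb repressive complex, read 12.35, 11.81 and 11.89 and then 11.51, 11.14 and 10.98. Cbx2, a Polycomb chromodomain protein, differed by -0.95 and Hmgn5 by -0.80. Without E14, E18 or P0, 3, 3 and 2 members fell, and the calls of Cbx2 and Hmgn5 were lost without any 1 of these arrays, that of Cbx2 also without E15 or E16. Of 37 tested splicing factors and RNA-binding proteins (40 listed), 3 fell and 1 rose, against 4.42% and 6.86% of all genes tested. Without E15, 5 of them fell, without E14 2, and without E18 or P0 1. Ptbp1, which represses neuronal exons, differed by -1.0, but with probe sets that match several transcripts left out its slope was 0.04 (adjusted p = 0.877). Rbfox3, the NeuN antigen of mature neurons, rose from 10.06 to 11.33. Its call was lost without P0 and with the median over its probe sets (slope 0.09, adjusted p = 0.348). Of 11 tested heterochronic and fetal growth genes (19 listed), Hmga2 and Igf2bp3 (difference -1.41), a partner of fetal growth messages, fell, and Igf2, a growth factor of meninges and vessels, rose from 10.06 to 12.21 (lost without E18). Igf2bp1 was not called on the probe set used (slope -0.09 ± 0.07), whereas its other probe set read 7.15, 6.24 and 5.14 and then 4.66, 4.15 and 3.55 (slope -0.71), so that the result depended on the probe set. Lin28b read under 5 on all 9 arrays.

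Most tested astrocyte genes rose. Of 30 tested members (38 listed), 18 rose, 1 fell and the median difference was 0.93, and 13 were also called higher in the fit with block and age. Pla2g7, a phospholipase, read 2.76, 3.40 and 3.74 in the middle block and 5.88, 6.76 and 7.24 in the perinatal block. Bcan (brevican, a matrix proteoglycan) read 5.62, 8.03 and 8.73 and then 9.47, 9.87 and 10.59, and Slc4a4, a bicarbonate transporter, 5.94, 8.38 and 9.62 and then 9.99, 10.98 and 10.89. Aqp4 and Pla2g7 moved mainly after E16, a call lost for Aqp4 without P0, whereas 62.6% and 74.3% of the change of Bcan and Slc4a4 had passed by then. Apoe, the lipid carrier of astrocytes and macrophages, rose by 0.63 ± 0.07 a day, from 9.17 to 12.34. Id4, which keeps stem cells undifferentiated, was the member that fell (difference -0.65). Gfap, the filament of mature astrocytes, read under 5 on all 9 arrays, and Aldh1l1 was not called (difference 0.35). Between 13 and 19 members rose when 1 array was left out.

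Some genes of the oligodendrocyte lineage and of ensheathing glia rose. Of 17 tested oligodendrocyte genes (24 listed), 7 rose and none fell, with a median difference of 0.74. Olig2, the partner of Olig1, read 3.81, 3.62 and 4.05 and then 5.54, 5.05 and 5.33, just above the filter, and its call was lost without any 1 of E14, E15, E16, E18 and P0. Pdgfra, the receptor that marks precursors, was not called (slope 0.29 ± 0.09, adjusted p = 0.0723), nor was Sox10, a factor of oligodendrocytes and ensheathing glia (slope 0.24 ± 0.07, adjusted p = 0.0733). Mbp of myelin was not called on the probe set used (slope 0.03 ± 0.05, adjusted p = 0.772), but 3 of its other probe sets had slopes of 0.53, 0.72 and 0.80, the last reading 2.96 at E14 and 6.90 at P0, and another -0.045. Mag and Mog of myelin read under 5 on every array. Without E14, E15 or E18, 3, 4 and 3 members rose. Of 16 tested ensheathing genes (22 listed), 8 rose and none fell, with a median difference of 1.19, and 2 rose without E14, 5 without E17 and 1 without E18. Aldh1a1, a retinaldehyde dehydrogenase, read 2.35, 2.50 and 3.98 and then 5.02, 6.18 and 7.0. S100b, a calcium-binding protein of glia, read 3.44, 4.33 and 5.22 and then 6.0, 7.20 and 5.98, and Matn2, a matrix protein, 7.85, 8.63 and 10.36 and then 11.12, 10.57 and 10.65. Aldh1a1 went on climbing to P0, whereas S100b and Matn2 peaked at E18 and E17. The calls of S100b and Matn2 were lost without E14 or E18, and that of Matn2 also without E15. That of S100b was also lost with values under 5 set to 5.

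**Figure D3:**
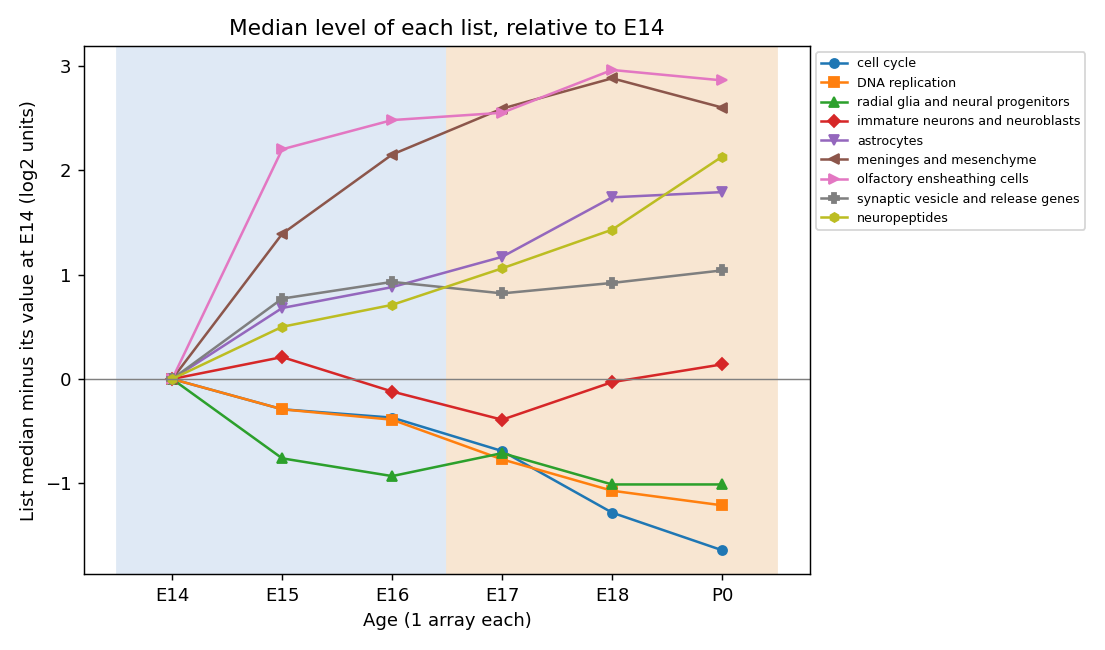
Median log2 level of 9 gene lists on each of the 6 arrays, minus the median of the same list at E14. The cell cycle and DNA replication lists fall further on each perinatal array, neuropeptides and astrocytes rise on each, and the synaptic list lies between 0.77 and 1.04 above E14 from E15 on.

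Most tested genes of meninges and mesenchyme rose. Of 28 tested members (30 listed), 16 rose and none fell, with a median difference of 1.13, and 10 rose without the E14 and 9 without the E18 array. The median level of the list was 6.42, 7.81 and 8.57 in the middle block and 9.01, 9.30 and 9.02 in the perinatal block, and of its members only Omd and Twist1 read too low to be tested. Besides Ptgds and Mgp, Fmod read 3.28, 3.88 and 6.22 and then 7.99, 7.26 and 8.44, and Slc26a7, an anion transporter, 4.90, 7.71 and 8.34 and then 9.42, 9.47 and 9.85. The fibroblast genes Dcn (decorin) and Lum (lumican) were not called (adjusted p = 0.0901 and 0.801). How much tissue covering the bulb each dissection held was not tested, and neither was its part in the rises of Mgp, Foxc2, Igf2 and the other genes of connective tissue.

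Some vessel and macrophage genes rose. Of 21 tested endothelial genes (28 listed), 5 rose and none fell, with a median difference of 0.39. Abcb1a, the efflux pump of the blood-brain barrier, read 5.11, 5.91 and 6.93 and then 6.85, 7.63 and 7.55, so that the blocks overlapped at E16 and E17. Vtn, vitronectin of pericytes, rose from 9.13 to 11.26. Without E14 or E18, 1 endothelial gene rose, and 3 did without E17. Of 17 tested microglial genes (29 listed), 7 rose and none fell, with a median difference of 0.74. C1qc, a chain of the complement protein C1q, read 4.8, 5.84 and 5.64 and then 6.45, 7.09 and 6.88. Its partners C1qa and C1qb differed by 0.87 and 0.84. No microglial gene rose at the threshold without E14, 3 did without E17 or E18 and 2 without P0. Of 12 tested genes of the MHC, interferon and complement list (26 listed), 6 rose and none fell, and 1 rose without E14, 4 without E17 and 3 without E18 or P0. Ifi27, induced by interferon, rose from 6.07 at E14 to 10.18 at P0, and Ifitm3, an antiviral membrane protein, from 6.61 to 8.70. The calls of Vtn, C1qa, C1qb, C1qc and Ifitm3 were lost without E14, that of Vtn also without E18, that of C1qb also without P0 and that of C1qa also without E17, E18 or P0.

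Most tested genes of the output neurons were not called, with differences from -1.1 to 2.32. Of 17 tested mitral and tufted genes (24 listed), 2 rose and 1 fell, with a median difference of 0.26. Tbr1, a T-box protein that directs the glutamatergic fate, read 11.88, 11.48 and 11.88 in the middle block and 11.16, 10.51 and 10.29 in the perinatal block (slope -0.33 ± 0.06, adjusted p = 0.0121), a call lost without E18 or P0. Tbx21 and Slc17a7, the vesicular glutamate transporter VGLUT1, rose, the latter from 3.94 to 5.84 with a call lost without any 1 of E14, E16, E17, E18 and P0. Tbr1 and Tbx21 thus moved in opposite directions. Eomes, Reln, Cdhr1 and Slc17a6 were not called (adjusted p = 0.188, 0.41, 0.0988 and 0.988). Without the E15 array 6 members rose, and 1 did without any other single array.

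Part of the interneuron genes rose. Of 18 tested genes of the GABAergic lineage (29 listed), 8 rose and none fell, with a median difference of 0.45. The filter left out Gsx2, at 5.51 at E14 and 3.52 at P0, and Isl1, at 5.74 and 2.34. It also left out Npy1r, at 3.37 and 4.12. Prokr2, the prokineticin receptor that guides neuroblasts into the bulb, read 6.27, 6.94 and 8.40 and then 9.49, 10.20 and 11.01 (slope 0.99 ± 0.05, adjusted p = 0.000446). Penk, the enkephalin precursor of granule and periglomerular cells, read 3.92, 6.22 and 6.57 and then 7.44, 8.13 and 8.67. Gad1, which makes GABA, rose from 11.68 to 13.13, with 80.3% of the change passed by E16, and Dlx5, a homeobox factor of the lineage, stood at 6.94 at E14 and 6.85 at E16 and reached 8.24 at P0. Gad2, Dlx2 and Meis2 were not called (adjusted p = 0.073, 0.13 and 0.164). Without E14, E17, E18 or P0, 3, 5, 3 and 4 members rose, and Prokr2 and Penk were called throughout, whereas Gad1 was lost without E14 and Dlx5 without E18 or P0. Of 11 tested periglomerular genes (15 listed), 4 rose. Th, tyrosine hydroxylase of dopaminergic cells, read 7.76, 8.72 and 9.11 and then 9.38, 9.43 and 10.12 (slope 0.41 ± 0.06, adjusted p = 0.00468), a call kept under every alternative run on the line. Calb2 (calretinin) rose from 11.05 to 12.05, a call lost without any 1 of E14, E16, E17, E18 and P0. Calb1 was not called (slope 0.11 ± 0.12), and without E14, E17, E18 or P0, 1, 2, 1 and 1 members rose.

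Of 27 tested genes of immature neurons (28 listed), 4 fell and none rose, with a median difference of -0.15. They included Neurog2, Nhlh2 and Neurod6 (12.41 at E14 and 10.50 at P0), a factor of young glutamatergic neurons. Without E14 or E18, 1 and 2 members fell. Dcx, doublecortin of migrating neurons, was not called, with values between 13.78 and 13.99. Of 45 tested axon guidance genes (51 listed), 4 fell and 1 rose, against 4.42% and 6.86% of all genes tested. Dcc, the netrin receptor, read 12.13, 11.73 and 11.67 and then 11.38, 10.73 and 10.73, and Epha3, an ephrin receptor, 11.33, 11.23 and 11.18 and then 10.70, 10.48 and 10.45. Sema3d, a secreted semaphorin, rose from 5.92 to 7.77. Without E14, E18 or P0, 2, 2 and 1 guidance genes fell, and the call of Epha3 was lost without P0 and those of Nhlh2 and Neurod6 without E14, that of Nhlh2 also without E18.

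Some neuropeptide genes rose. Of 16 tested members (28 listed), 8 rose and none fell, with a median difference of 0.74. Besides Crh and Penk, Nmb (neuromedin B) read 4.71, 4.93 and 5.0 and then 4.77, 6.97 and 7.94, so that E17 still lay among the middle values. Npy (neuropeptide Y), also made by ensheathing glia, rose from 9.31 to 12.15, with 80.4% of the change passed by E16. The list thus held both early and late courses. Without E18 or P0, 4 and 2 members rose, and 5 without E14. The calls of Nmb and Npy were lost without E18 or P0, and that of Crh without P0.

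Most synaptic vesicle genes were not called. Of 28 tested synaptic vesicle genes (34 listed), 8 rose, 1 fell and the median difference was 0.49. Snap25, a fusion protein of the synaptic vesicle, read 11.36, 11.87 and 12.13 and then 12.32, 12.31 and 12.64, and Syn2, a vesicle phosphoprotein, 8.82, 9.69 and 9.81 and then 9.94, 10.43 and 10.53. Both had separate blocks, by small margins. Syn1, another synapsin, was not called (slope 0.22 ± 0.09, adjusted p = 0.15). Syt4, an atypical synaptotagmin, fell from 10.50 to 8.91. Without E14, 1 vesicle gene rose, with 4, 2 and 3 without E17, E18 and P0, and 15 without E15. The call of Snap25 was lost without E14, and that of Syt4 without E14, E16, E17 or E18.

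On the receiving side, 9 of 25 tested postsynaptic genes (34 listed) rose and none fell, with a median difference of 0.39. Ddn, a dendritic protein, read 5.68, 7.54 and 8.0 and then 8.11, 8.58 and 8.93, and Icam5, a dendritic adhesion molecule, 2.28, 3.86 and 4.18 and then 4.62, 5.51 and 6.21. The call of Icam5 was lost with values under 5 set to 5. Camk2a, the kinase of mature synapses, was not called (slope 0.18 ± 0.07, adjusted p = 0.125). Without E14, E18 or P0, 5, 4 and 5 members rose. Of 20 tested glutamate receptors (28 listed), 4 rose. Grin3a, an NMDA receptor subunit of young neurons, rose from 6.56 to 8.67, and Grm5, a metabotropic receptor, from 7.77 to 8.72, calls lost without E14 or E18 and, for Grm5, without E16, E17 or P0. The call of Grm5 was also lost with the median over its probe sets, and another of them had a slope of 0.036. Grin2b was not called (slope 0.03 ± 0.05) and Grin2a read under 5 on all 9 arrays. No glutamate receptor rose at the threshold without E14 or without E18, 2 did without E16, E17 or P0, and 7 without E15. Of 12 tested GABA and glycine receptor and chloride transport genes (23 listed), Glrb, Gabra4 and Gabrb2 rose, by differences of 1.04, 0.92 and 0.73. None of these 3 calls held without E14 or E18, 1 receptor gene rose without E17 and 5 without E15. Slc12a5, the chloride exporter KCC2, was not called (slope 0.28 ± 0.08, adjusted p = 0.0662), with 82.3% of its change passed by E16, and neither was Slc12a2, the importer NKCC1.

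Voltage-gated channels included 7 rising genes of 40 tested (57 listed) and no falling one, with a median difference of 0.26. Kcna1, a delayed rectifier of axons, read 4.51, 4.04 and 4.53 and then 5.05, 5.72 and 6.12. Another probe set of Kcna1 read 3.80, 3.29 and 3.30 and then 3.62, 5.54 and 5.74, so that it was still under 5 at E17. Kcnj10, the inward rectifier of astrocytes, read 4.60, 4.67 and 5.17 and then 5.36, 5.96 and 6.36, and Kcnq5, an M-current subunit, 5.32, 5.48 and 5.56 and then 6.39, 6.53 and 6.46. By E16 these genes had covered 1.1%, 32.4% and 20.4% of their change. The median rising channel gene had covered 43.6% of its change by E16, against 62.2% of all rising genes. Without E14, E18 or P0, 4, 3 and 3 members rose. The call of Kcnq5 was lost without any 1 of these, that of Kcna1 without E18 or P0 and that of Kcnj10 without P0.

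Some activity- and hormone-responsive genes rose. Of 15 tested immediate early genes (25 listed), 4 rose and none fell. Fos read 5.20, 6.26 and 7.57 and then 7.32, 9.05 and 9.68, and Egr1 read 5.75, 6.88 and 7.86 and then 7.10, 9.28 and 9.04. In both, E17 lay below E16, and E18 and P0 lay above all earlier arrays. Nr4a1, a nuclear receptor of the same class, differed by 0.70 (lost without E14, E15, E16, E18 or P0), Nr4a2 was not called (slope 0.04 ± 0.07), and Arc read under 5 on all 9 arrays. The handling of each animal before dissection was not tested as a source of these values. Of 16 tested glucocorticoid-responsive genes (22 listed), 8 rose and none fell, with a median difference of 0.64. Sult1a1, a sulfotransferase, read 2.97, 2.85 and 3.86 and then 5.56, 6.69 and 6.88, and Mt1, metallothionein 1, rose from 6.32 to 9.38. Fkbp5, a classic glucocorticoid target, was not called (slope 0.10 ± 0.05, adjusted p = 0.214). Without E14, E18 or P0, 2, 5 and 5 members rose. Of 13 tested thyroid hormone-responsive genes (20 listed), Aldh1a1, Klf9 and Kcnj10 rose, and 3 or 4 members did when 1 array was left out. The call of Egr1 was lost without E14, that of Mt1 without E14 or P0 and that of Kcnj10 without P0.

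Basal metabolism differed little between the blocks. Of 57 tested genes of oxidative phosphorylation (60 listed), 2 rose, Cyc1 and Uqcrh, and the median difference was 0.05. Neither rose without E14, E18 or P0. Of 30 tested ribosomal protein genes (54 listed), Rpl14 fell, with a median difference of -0.12, a call lost without E14, E15, E18 or P0. In glycolysis, 2 of 19 tested genes (24 listed) rose and 1 fell, against 6.86% and 4.42% of all genes tested. Slc16a1, the lactate transporter MCT1, read 9.18, 8.66 and 9.20 and then 9.97, 10.42 and 10.74 (lost without P0), and the hexokinase Hk2 fell from 7.60 to 6.04 (lost without E14 or P0). Without E15, 4 glycolytic genes rose, and 1 without P0. Of 20 tested cholesterol synthesis genes (25 listed), Insig1, a sterol sensor, rose from 8.86 to 9.91 (lost without E14 or E18).

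**Figure D4:**
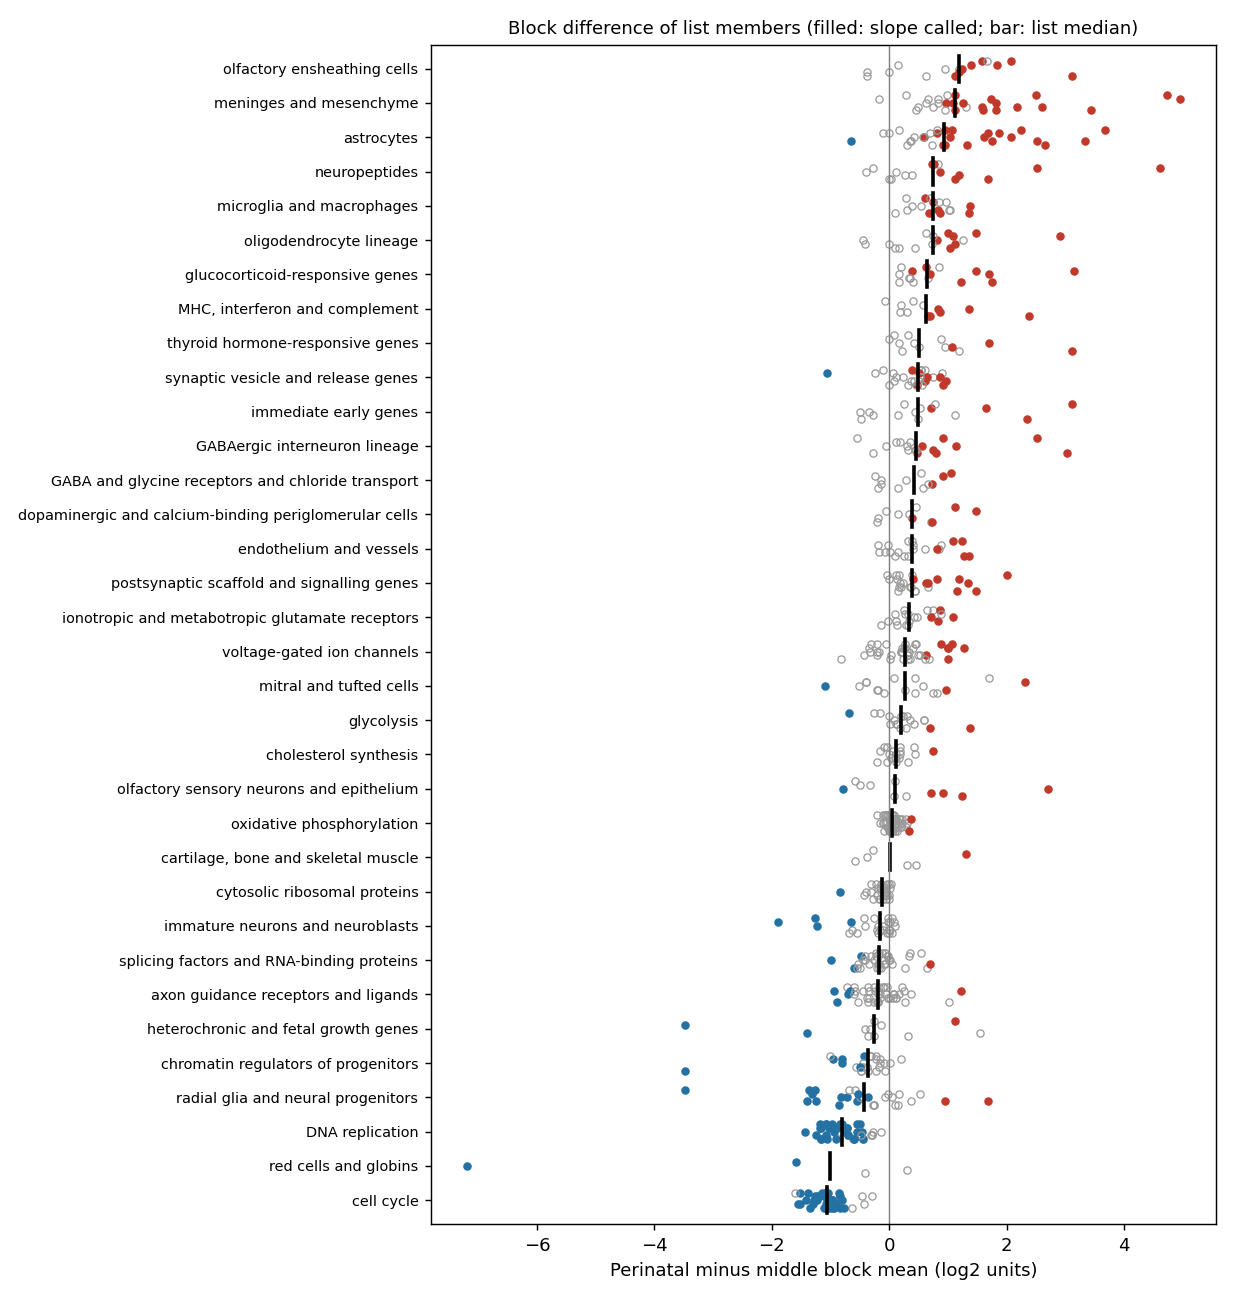
Block difference in log2 units (perinatal minus middle mean) of every tested member of 34 gene lists, ordered by list median (black bar), with rising members filled red, falling members filled blue and members that were not called open. The cell cycle and DNA replication members all lie below 0, and the ensheathing and meninges lists have the highest medians, 1.19 and 1.13.

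Markers of neighbouring tissues were mostly too low to be tested. Of 20 red cell genes 4 were tested and 2 fell, and Hbb-y, an embryonic globin, read 14.48, 11.37 and 5.48 and then 4.32, 2.53 and 2.90, at least 43.5-fold lower. Slc4a1, the anion exchanger of red cells, fell from 7.65 to 5.55. Of 28 genes of olfactory sensory neurons and epithelium 11 were tested, of which 4 rose and 1 fell, and Omp, the marker of mature sensory neurons, read under 5 on all 9 arrays. Gng13, a G protein subunit shared by sensory neurons and other cells, read 2.63, 3.10 and 3.28 and then 4.56, 6.30 and 6.25. Without E14, E17, E18 or P0, 2 of these genes rose. The call of Gng13 was lost with values under 5 set to 5. Of 23 genes of cartilage, bone and muscle 6 were tested and Myh8 rose (3.44 at E14 and 6.45 at P0). Its call was lost without E14, E18 or P0 and with values under 5 set to 5. Of 20 surface epithelium genes, Perp alone was tested, and it rose from 4.41 to 7.92, while the keratins Krt5, Krt8 and Krt14 read under 5 on all 6 arrays. Some untested markers of neighbouring tissues reached 5 at P0 alone. Cdh1 read 2.73 at E14 and 5.83 at P0, Cbr2 2.22 and 5.38, and Acan 3.07 and 5.24.

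A further set of genes had block means that moved before the middle block and little after it. Among 10864 genes that passed the filter on the 9 arrays, 719 had moved by at least 1 log2 unit between E11 to E13 and the middle block and by less than 0.5 afterwards, 565 of them upward and 154 downward. Gabrg1, a GABA receptor subunit, had risen by 5.38 before and then differed by -0.14. Gria1, the AMPA receptor subunit GluA1, had risen by 4.47 and then differed by 0.48, and Aldh1l1, a folate enzyme of astrocytes, by 4.84 and 0.35. Stat4, a signal transducer, had dropped by 4.76 and then differed by -0.19. Means over E14 to E16 do not show that a change was complete at E14, and Gabrg1 itself read 8.02 at E14 and 10.56 at E15. Xist and the Y-linked Eif2s3y, Kdm5d and Uty were among the 719 and followed the sex of the embryos. These values are a description, since both differences share the middle arrays. Of the 719 genes, 15 were also called by the line and are counted above, and 1287 genes met the rule when the E14 array was left out. Probe sets were chosen over all 9 arrays for this rule. C1qb met it on another probe set (difference 0.43) than the one called by the line.

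At birth, 12 genes stood at least 1 log2 unit above, and 11 below, each of the 5 embryonic arrays from E14 to E18, with values under 5 set to 5. This describes 1 animal and carries no test. H3f3b, a replication-independent histone, read between 5.87 and 7.27 from E14 to E18 and 9.69 at P0, and H1f2, a linker histone, between 9.39 and 10.14 and then 11.84. Chac1, a glutathione-degrading enzyme induced by stress, read 7.47 at P0 against at most 6.10 before, and Nupr1, a stress-induced nuclear protein, 6.70 against at most 5.40. Golga7b rose from 4.43 at E14 to 7.69. Below the earlier arrays lay Zfp40 (7.44), Ttf2, a transcription termination factor (5.06), and Alas2, the first enzyme of haem synthesis in red cells (6.94 against 8.24 or more). Another probe set of Zfp40 read 7.88 at E18 and 5.86 at P0. A further one read 5.46 and 5.60, so that the drop depended on the probe set. Crh, Aqp4 and Slc6a20a also stood at least 1 unit above E18. Without the E18 array 140 genes met the rule instead of 23.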

How the data were processed

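Levels were measured in the olfactory bulb of CD1 mice on Affymetrix mouse genome arrays, 1 animal an age, with 6 arrays used here. The deposited values are log2 levels per probe set, which the authors made with GCRMA per the submitters' processing notes (version not given in the sources used here). GCRMA normalises between arrays, so a shift common to all genes is not measured, and its background correction compresses low values. With 1 array an age, precision is limited by their number.

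Of 45101 probe sets, 64 were controls, 34958 carried 1 gene name, 932 several and 9211 none, and only those with 1 name were used. Of 34754 probe sets whose Entrez ID was found in a RefSeq gene table, 0 symbols changed. Probe sets that reached log2 5 on 2 or more of these arrays were kept (21204), and for each gene the one with the highest mean, leaving 10713 genes. For 48 named called genes with another such probe set, that of 1, Ptbp1, had a slope of opposite sign. Of uncalled named genes, Camk2a, Dcx, Mbp, Meis2 and Reln each had such a probe set.

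Models were fitted with limma 3.58.1 in R 4.3.3 (lmFit, eBayes with a variance trend, two-sided, Benjamini-Hochberg over all genes, threshold 0.05): block difference (4 residual degrees of freedom), slope on age with P0 at day 19, and block with age centred within blocks. For folds, values under 5 were set to 5, and a fold resting on such a value is a lower bound. The procedure was tested on simulated data. Figures were drawn with matplotlib 3.10.9.

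The members and gene lists were chosen with earlier results of these data known. Named genes were drawn from the 12 largest rises and falls among called genes with separate blocks, 8 rising and 8 falling transcription factors, up to 4 called members of each list, fixed markers, the 8 largest changes at birth, and promoters of up to 4 called members. The rule was written for calls of the block comparison, and since that called 1 gene it was applied to the slope calls. Members of the group that switched on, such as Prima1, Ache, Aspa, Car14 and Cd163, and Apoe, Id4, Slc1a3, Dcn, Lum, Mag, Mog, Gabrg1, Gria1, Aldh1l1, Stat4, Omd, Twist1 and the keratins were picked after their values were seen. The same holds for Barhl2, Cck, Crhr1, Lhx1, Lhx5, Ppfibp2, Gsx2, Isl1, Npy1r, Cdh1, Cbr2 and Acan, which were under the filter. Animals of an age were not repeated, and so p-values rest on scatter around a line or block mean over single animals.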

Additional observations from a re-analysis of the deposited data

How the results depend on the processing

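The block comparison gave 0 higher genes without the filter, with the median over probe sets or with embryo sex in the fit, 6 with values under 5 set to 5, 9 with all 9 arrays and 2 without the variance trend, against 1. All of these differed by at least 2-fold. With age within the blocks it gave 243 higher and 249 lower genes (175 and 119 at least 2-fold), and the slope on age gave 735 and 473 (329 and 127). Leaving out 1 array gave 0 to 28 higher and 0 to 4 lower genes, all at least 2-fold. Alternatives of the slope were chosen after seeing the data. For it, 360 genes rose and 283 fell without the filter, of which 326 and 275 were among the genes called before, and 468 rose with P0 at day 20, 465 of them called before. Leaving out 1 array gave 226 to 850 rising and 190 to 447 falling genes. Genes whose means moved before the middle block and little after numbered 487 to 1287 and the changes at birth 24 to 140 when 1 array was left out, and 643 with values under 5 set to 5 and 28 without that floor, respectively. No other setting moved the slope counts by over 1.5 times. Of 136 named called genes, 57 stayed called under every alternative of the slope in which they could be fitted, and 58, 53 and 46 calls were lost without E14, E18 and P0. Ptbp1 had a slope of 0.041 without the probe sets that match several transcripts. The causes were not tested. No replicate of an age exists, so a change of 1 log2 unit carries an unknown spread between animals. No paired analysis was possible because the labels carry no replicate numbers and each age is 1 animal.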
